A study of Mus musculus with 8 samples.

Results

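The genes examined here build the blood-testis barrier and the other cell junctions of the mouse testis. The list of 32 genes was set by name and grouped by role as tight junction (13 genes), adherens junction and nectin (9), gap junction (1), polarity (4), and actin linkers and integrins (5). The list was chosen with earlier results of these data known. All 32 were found among the 55414 genes of the table by symbol, and 29 reached the average of 1 FPKM required for testing. Testes of mice labelled as treated with valine, a branched-chain amino acid, were compared with control testes by RNA sequencing, with 4 samples in each group. The sources used here do not give strain, age, dose, route or duration, nor whether samples came from separate animals. The p-values therefore measure the spread among these samples alone, which could be technical. The labels record no genotype, transgene or batch. In whole testis, fewer cells of a type and less RNA per cell cannot be told apart.

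Sertoli cells, the somatic nurse cells of the seminiferous tubule, join to each other near the base of the tubule and so divide it into a basal and an adluminal compartment. This barrier combines tight junctions (claudins, occludin and junctional adhesion molecules bound to ZO scaffolds), adherens junctions (cadherins and nectins bound to catenins and afadin), gap junctions (connexins) and actin bundles known as ectoplasmic specializations. Related junctions of nectins, integrins and actin hold the heads of spermatids at the Sertoli cell surface, and many of the same proteins also join Leydig, endothelial and peritubular cells.

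FPKM values are fragments per length of gene scaled to the library, so their size can be compared between genes. The values stood at whole-fragment steps, from which 16323098 to 18924251 fragments per control sample and 16959166 to 19334075 per valine sample were recovered. Depth therefore overlapped between the groups. Defining markers of testis were present: all 20 Sertoli, 11 Leydig, 10 spermatocyte and 10 elongating spermatid markers passed the limit for testing, against 5 of 13 markers of epididymal and rete epithelium. The FPKM totals did not overlap, with 944659 to 974626 in control and 1027662 to 1070524 in valine samples. Across all 22077 tested genes 954 were higher and 974 lower with valine (limma adjusted p below 0.05). Rescaling to equal totals moved the median change by -0.10 on the log2 scale and gave 363 higher and 2022 lower. Quantile normalisation gave 398 and 1029, and limma's voom on the recovered fragments 874 and 1398.

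Of the 29 tested junction genes 1 rose and 5 fell, where 8.73% of all tested genes passed in either direction. Cldn3 rose, and Cldn5, Itgb1, Vcl, Ctnnb1 and Tjp1 fell. The share of all tested genes that rose was 4.32%, against 3.45% of the junction genes, and the share that fell was 4.41%, against 17.2% of the junction genes. The groups did not overlap for 2 junction genes in the upward direction (6.90%, against 8.99% of all tested genes) and for 6 in the downward direction (20.7%, against 9.39%). Because the list was chosen with earlier results known, these shares describe it and are no test of junction genes in general. The median change of the 29 genes was -0.09 on the log2 scale, beside 0.02 over all tested genes, and 20 of the 29 were negative. With equal totals these medians were -0.20 and -0.08. In that setting 0 of the 29 genes were higher and 5 lower, beside 363 and 2022 of all 22077 tested genes. Changes are differences of log2(FPKM + 1), a scale on which low genes appear to change less than they do.

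The junction genes were long, and their change is read beside that of genes of like length. Their median exon length was 6045 bp, against 2598 bp for all tested genes. Of 10 length bins with equal numbers of tested genes, the 2 longest held 8 junction genes each and the next held 3. In the 3 longest bins, from shorter to longer, 7.33%, 8.21% and 9.46% of genes fell and the median change was -0.05, -0.07 and -0.12 on the log2 scale. After a smooth length trend was removed from each sample, Cldn5 (change -0.89) and Itgb1 (-0.75) passed and the other 4 did not. Of all 21676 genes tested in this setting 471 were higher and 717 lower, beside 0 and 2 of the 29 junction genes. The change went from 0.32 to 0.19 for Cldn3 (limma adjusted p = 0.138) and from -0.22 to -0.12 for Tjp1 (limma adjusted p = 0.238). It went from -0.37 to -0.27 for Vcl (limma adjusted p = 0.103) and from -0.29 to -0.24 for Ctnnb1 (limma adjusted p = 0.0547). Patj (0.26), Ctnnd1 (0.25), Jam3 (0.22) and Nectin3 (0.20) had larger positive changes than Cldn3 in this setting, and none of them passed. The median change of the 29 genes was then -0.01, beside 0.01 over all tested genes.

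**Figure D1:**
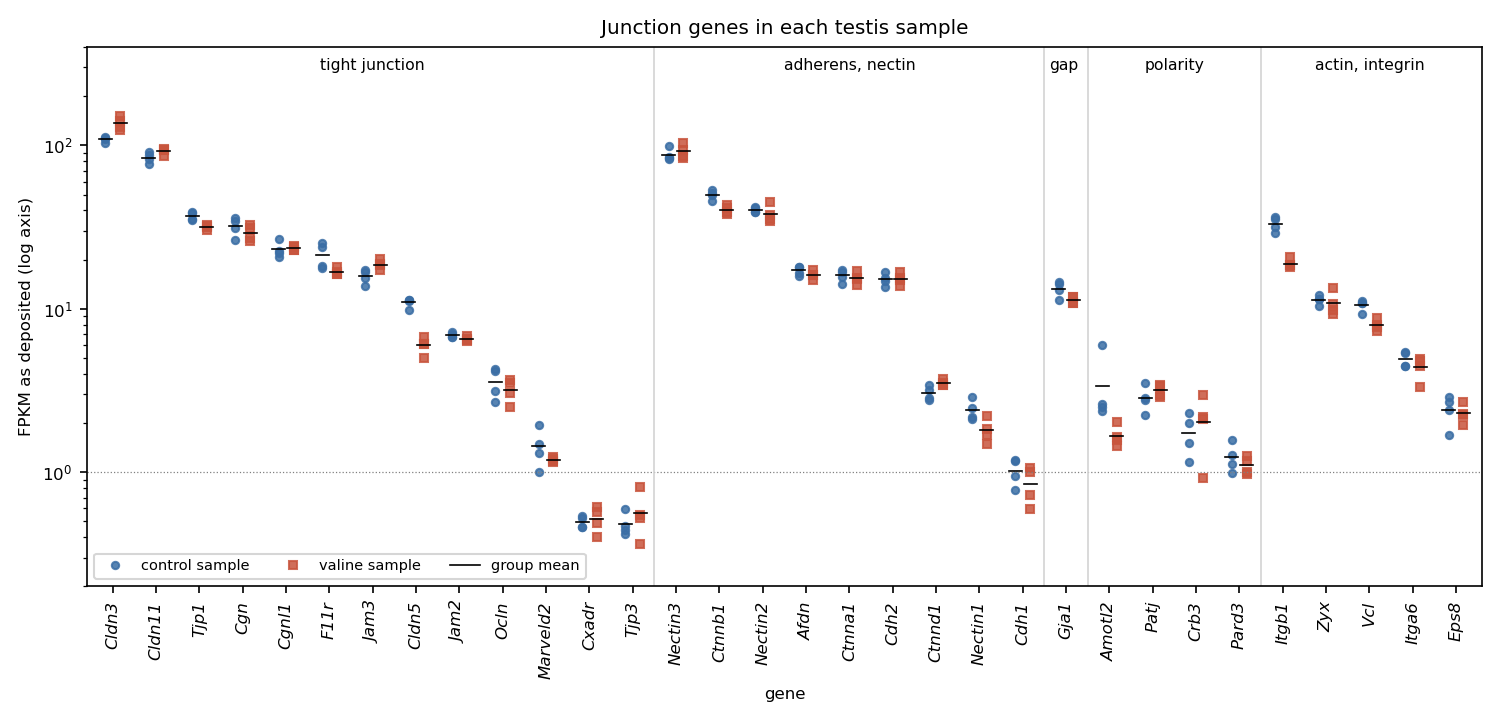
FPKM (log axis) of each of the 32 junction genes in the 4 control samples (blue circles) and the 4 valine samples (red squares), with group means as black bars and a dotted line at 1 FPKM. Control means run from 109 FPKM for Cldn3 to 0.482 FPKM for Tjp3, and the groups separate most clearly at Cldn5 and Itgb1.

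In control testes Cldn3 had the highest level of the list, 109 ± 4.24 FPKM (mean ± SD, n = 4 here and below). Nectin3 (87.5 ± 7.81 FPKM) and Cldn11 (84.2 ± 6.16 FPKM) followed, and their samples overlapped. Ctnnb1 came next with 49.9 ± 3.19 FPKM, above Nectin2 at 40.2 ± 1.40 FPKM without overlap. From Nectin2 down to Vcl, at 10.6 ± 0.891 FPKM, every gene overlapped its next neighbour in the order of means. Genes farther apart in that run could still be separated, as Nectin2 (38.9 to 41.7 FPKM) lay wholly above Itgb1 (29.1 to 36.4 FPKM). The lowest 3 genes, Cdh1, Cxadr and Tjp3, had control means of 1.02, 0.498 and 0.482 FPKM and rested on 9 to 41 fragments per sample. Cdh1 encodes E-cadherin, and Cdh2, the N-cadherin known as the main classical cadherin of the seminiferous epithelium, had 15.2 ± 1.38 FPKM.

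**Figure D2:**
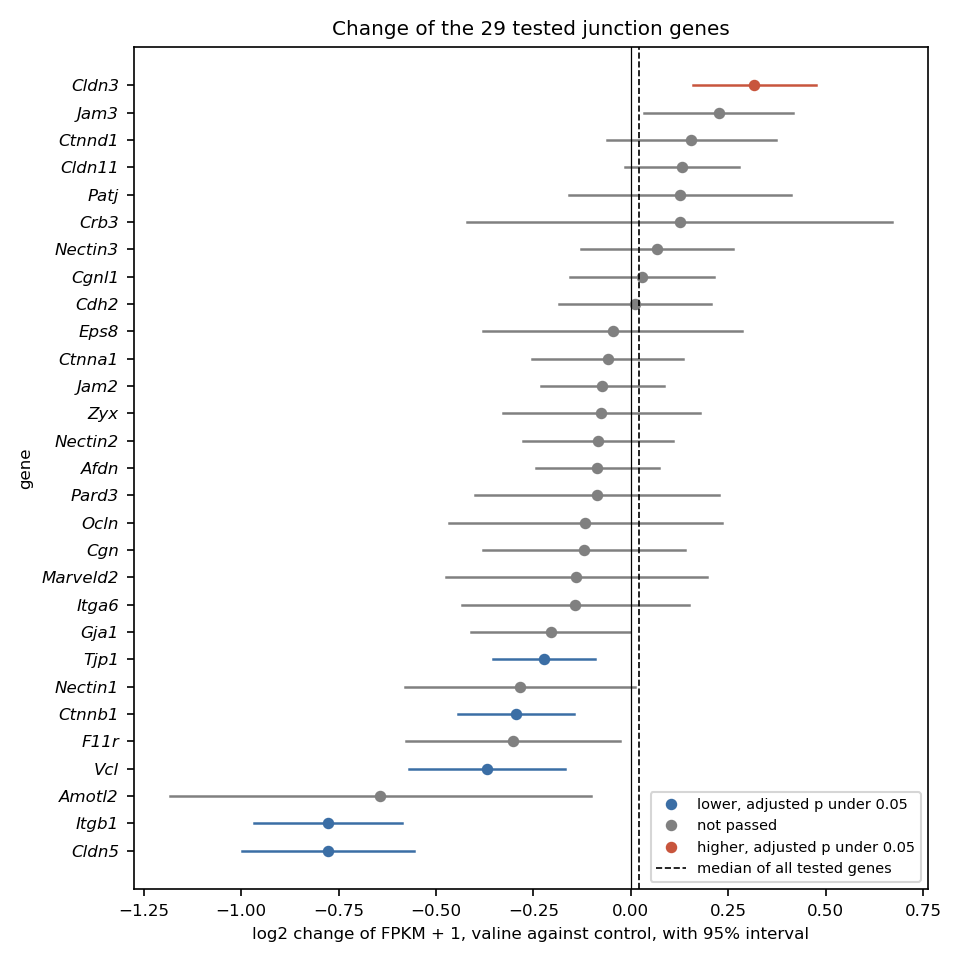
Change of each of the 29 tested junction genes on the log2(FPKM + 1) scale with its 95% interval from limma (red, rose; blue, fell; grey, did not pass), with the median of all tested genes as a dashed line. Cldn5 and Itgb1 lie lowest, both at -0.78, and Cldn3 highest, at 0.32.

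Of the 3 claudins, the strand-forming proteins of tight junctions, Cldn3 rose, Cldn5 fell and Cldn11 did not pass. Cldn3 (ENSMUSG00000070473, chromosome 5) encodes a claudin that androgen is known to induce in Sertoli cells, where it marks newly formed barrier. Its control samples held 111, 103, 112 and 109 FPKM and its valine samples 140.5, 123, 129.6 and 152 FPKM. Every valine sample was above every control sample. The change was 0.32 ± 0.0689 (SE) on the log2 scale, a rise of 25.2% in the mean (limma adjusted p = 0.0277), on 865 to 1410 fragments per sample. The rise was 0.20 with equal totals and 0.21 with quantile normalisation and did not pass with either (limma adjusted p = 0.0724 and 0.0719). The call was also lost without control replicate 1, 2 or 4 or valine replicate 1 (limma adjusted p = 0.0567 to 0.0797).

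Cldn5 (ENSMUSG00000041378, chromosome 16), known from the endothelial barrier and also from Sertoli cells, went the other way. It had 11.2, 11.3, 11.4 and 9.88 FPKM in control and 4.996, 6.72, 6.12 and 6.12 FPKM in valine samples, without overlap. The change was -0.78 ± 0.0965 (SE) on the log2 scale, a mean that fell by 45.3% (limma adjusted p = 0.00453). It rested on 105 to 122 fragments per control sample and 47 to 68 per valine sample. The fall passed in all 10 alternative analyses and with each of the 8 samples left out, with changes of -0.83 to -0.71 in the latter.

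Markers of endothelial cells were lower in the same samples as Cldn5. Of 8 tested endothelial markers 3 fell and none rose (Eng, Cdh5 and Esam), and the median change of the list was -0.30 (log2). The summed level of the 11 listed markers was 27.1 to 31.8 FPKM in control and 17.3 to 19.2 FPKM in valine samples. None of the 11 was at 0 in all samples, and the part of endothelial cells in the fall of Cldn5 was not tested.

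Cldn11, which forms the Sertoli cell strands without which spermatogenesis fails in mice, did not pass. It had 90.6, 87.4, 82.2 and 76.6 FPKM in control and 95.6, 94.1, 93.2 and 85.9 FPKM in valine samples, and the groups overlapped. The 95% interval of its change was -0.01 to 0.28 on the log2 scale (limma adjusted p = 0.24). The summed level of 20 Sertoli markers lay at 1132 to 1369 FPKM in control and 1336 to 1425 FPKM in valine samples, also with overlap, and 3 of them rose (Rhox8, Defb36 and Tsx).

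The sequences upstream of the 3 claudin genes are shown because they belong to a single family in which 1 gene rose, 1 fell and 1 did not pass; differences between the genes were not tested. Each is the 250 bases before the start of the gene, from RefSeq on GRCm38.p6 and read on the gene's strand. Capitals mark matches on either strand to a GC box (GGGCGG) or a CCAAT box (CCAAT). Cldn3 is at chr5:134985964-134986213, Cldn5 at chr16:18776597-18776846 and Cldn11 at chr3:31149670-31149919, all on the plus strand.
Cldn3: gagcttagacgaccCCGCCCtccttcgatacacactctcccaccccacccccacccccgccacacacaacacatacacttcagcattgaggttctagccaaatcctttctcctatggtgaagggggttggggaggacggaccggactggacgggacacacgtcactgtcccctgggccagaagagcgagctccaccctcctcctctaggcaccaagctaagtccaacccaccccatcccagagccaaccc
Cldn5: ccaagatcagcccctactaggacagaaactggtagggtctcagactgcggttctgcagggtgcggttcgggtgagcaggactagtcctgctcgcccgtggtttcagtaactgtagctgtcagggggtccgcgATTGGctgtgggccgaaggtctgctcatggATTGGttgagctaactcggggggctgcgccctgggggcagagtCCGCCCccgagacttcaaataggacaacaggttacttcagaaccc
Cldn11: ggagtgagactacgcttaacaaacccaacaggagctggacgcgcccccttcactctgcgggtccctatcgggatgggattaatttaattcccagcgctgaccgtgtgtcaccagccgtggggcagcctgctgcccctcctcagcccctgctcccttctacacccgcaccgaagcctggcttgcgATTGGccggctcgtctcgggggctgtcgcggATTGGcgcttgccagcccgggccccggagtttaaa
The Cldn3 sequence held 1 GC box and no CCAAT box. The Cldn5 sequence held 1 GC box and 2 CCAAT boxes, and that of Cldn11 held 2 CCAAT boxes and no GC box. Of 32851 such upstream sequences in the mouse table, 32.7% held a GC box and 33.85% a CCAAT box, so these matches are common. GC content was 60.8%, 59.6% and 63.6%.

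Transmembrane partners of the claudins did not pass. Occludin (Ocln) had 3.57 ± 0.771 and 3.20 ± 0.520 FPKM in control and valine testes, and tricellulin (Marveld2), which seals the points where several cells meet, had 1.44 ± 0.394 and 1.19 ± 0.0399 FPKM. Both rested on 23 to 138 fragments per sample, and their intervals ran from -0.47 to 0.23 and from -0.47 to 0.19 on the log2 scale. Cxadr, a virus receptor of the tight junction, was below the limit for testing, with 0.498 ± 0.0416 and 0.518 ± 0.0910 FPKM.

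The junctional adhesion molecules are immunoglobulin-like proteins of the tight junction. Jam3, which spermatids need for polarity, had 17.4, 13.8, 16.7 and 15.5 FPKM in control and 18.5, 17.4, 20.1 and 18.7 FPKM in valine samples. Only valine replicate 2 lay within the control range, and the change of 0.23 did not pass (limma adjusted p = 0.134). F11r, which encodes JAM-A, was 23.9 and 25.4 FPKM in control replicates 1 and 2, 18.2 and 17.7 in control replicates 3 and 4, and 16.2 to 18.1 FPKM in the valine samples. Its change of -0.30 did not pass (limma adjusted p = 0.158). Jam2 was nearly level, at 6.95 ± 0.245 and 6.55 ± 0.224 FPKM, with an interval of -0.23 to 0.08.

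Among the scaffolds that tie tight junctions to actin, Tjp1 fell by a small amount. Tjp1 (ENSMUSG00000030516, chromosome 7) encodes ZO-1, the central scaffold of the barrier. It had 39.2, 35.7, 38.8 and 35.02 FPKM in control and 31.7, 30.5, 32.8 and 31.9 FPKM in valine samples, without overlap. The change was -0.22 ± 0.0572 (SE) on the log2 scale (limma adjusted p = 0.0489), on 1645 to 2352 fragments per sample. The call was lost with each of the 8 samples left out (limma adjusted p = 0.0522 to 0.123) and in 6 of 10 alternatives.

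The other scaffolds did not pass. Cingulin (Cgn) had 31.9 ± 4.34 and 29.2 ± 3.23 FPKM and paracingulin (Cgnl1) 23.1 ± 2.64 and 23.5 ± 0.757 FPKM, with overlap in both. Their intervals were -0.38 to 0.14 and -0.16 to 0.21 on the log2 scale. Tjp3, which encodes ZO-3, was below the limit for testing, with 0.365 to 0.814 FPKM over the 8 samples.

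At adherens junctions the catenin Ctnnb1 fell while the cadherin and its other catenins did not pass. Ctnnb1 (ENSMUSG00000006932, chromosome 9) encodes beta-catenin, which links cadherins to alpha-catenin and also carries Wnt signals. It had 50.9, 49.7, 53.4 and 45.7 FPKM in control and 39.0, 41.7, 43.2 and 38.2 FPKM in valine samples, without overlap. The change was -0.29 ± 0.0653 (SE) on the log2 scale, a mean that fell by 18.8% (limma adjusted p = 0.0301). With 1 sample left out the adjusted p ranged from 0.0265 to 0.0858 and passed only without control replicate 4 or valine replicate 3.

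N-cadherin (Cdh2) had 15.2 ± 1.38 and 15.3 ± 1.23 FPKM, and alpha-catenin (Ctnna1) 16.1 ± 1.38 and 15.4 ± 1.26 FPKM. Their intervals, -0.18 to 0.21 and -0.25 to 0.14 on the log2 scale, do not reach the estimate for Ctnnb1, though the difference between genes was not tested. Ctnnd1, which encodes p120-catenin and holds cadherins at the membrane, had 2.75 to 3.40 FPKM in control and 3.40 to 3.70 FPKM in valine samples. The groups met without overlapping, and the change of 0.16 did not pass (limma adjusted p = 0.346). E-cadherin (Cdh1) was below the limit for testing, with 0.777 to 1.19 FPKM in control and 0.592 to 1.06 FPKM in valine samples.

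Nectins are adhesion molecules that pair across cells and bind actin through afadin. Nectin3 is known from spermatids and Nectin2 from the Sertoli cells that face them. Nectin3 had 83.7, 82.6, 84.6 and 99.2 FPKM in control and 94.2, 86.1, 83.7 and 103 FPKM in valine samples, and it was the most deeply covered member with 7035 to 9738 fragments per sample. Nectin2 had 41.1, 38.9, 39.2 and 41.7 FPKM in control and 34.3, 37.6, 35.5 and 44.9 FPKM in valine samples. Neither passed, and both groups overlapped, with valine replicate 4 highest for each. Nectin1 had 2.41 ± 0.346 and 1.80 ± 0.303 FPKM (change -0.28, limma adjusted p = 0.212), and afadin (Afdn) 17.2 ± 1.05 and 16.1 ± 0.911 FPKM.

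The gap junction is represented by Gja1. It encodes connexin 43, which couples Sertoli cells to each other and to germ cells and is also known from Leydig cells. It had 14.1, 14.7, 13.0 and 11.3 FPKM in control and 10.8, 11.8, 11.8 and 10.9 FPKM in valine samples. Only control replicate 4 lay within the valine range. The change of -0.21 ± 0.0893 (SE) on the log2 scale did not pass (limma adjusted p = 0.193). The summed level of 11 Leydig markers, all of which fell, was 1707 to 2396 FPKM in control and 552 to 852 FPKM in valine samples, and the part of Leydig cells in the values of Gja1 was not tested.

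None of the polarity genes passed. Amotl2, an angiomotin family protein that links junctions to actin, had 6.01, 2.38, 2.50 and 2.63 FPKM in control and 1.65, 1.45, 2.03 and 1.57 FPKM in valine samples. The groups did not overlap, but control replicate 1 stood far above the other controls, and the change of -0.64 had an interval of -1.18 to -0.10 (limma adjusted p = 0.132). Without that sample the change was -0.39 on the log2 scale (limma adjusted p = 0.136). Control replicate 1 also had the highest summed level of 7 adipocyte markers (93.1 FPKM, against 31.7 to 41.7 in the other controls) and of 8 stroma markers (93.1 FPKM, against 53.9 to 64.0). Cfd and Car3 of the adipocyte list were at 0 in some samples, and the part of either list in its Amotl2 level was not tested.

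The other polarity genes lay between 0.924 and 3.498 FPKM. Pard3, the scaffold of the Par complex, had 1.24 ± 0.252 and 1.10 ± 0.135 FPKM. Patj, of the Crumbs complex, had 2.84 ± 0.521 and 3.16 ± 0.278 FPKM. Crb3, the Crumbs protein of epithelia, had 1.73 ± 0.510 and 2.04 ± 0.838 FPKM on only 11 to 33 fragments per sample, and its interval of -0.42 to 0.67 on the log2 scale is the widest of the list. A change of the size of Cldn3's could not be detected at this depth for Crb3.

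Among actin linkers and integrins, Itgb1 showed the clearest fall beside Cldn5. Itgb1 (ENSMUSG00000025809, chromosome 8) encodes integrin beta 1, which pairs with many alpha chains to bind matrix and is known from the anchoring of spermatids and from most somatic cells. It had 35.3, 36.4, 31.8 and 29.1 FPKM in control and 17.9, 18.5, 18.4 and 20.6 FPKM in valine samples. The lowest control was well above the highest valine sample. The change was -0.78 ± 0.0833 (SE) on the log2 scale, a mean that fell by 43.0% (limma adjusted p = 0.00333), on 876 to 1106 fragments per control and 486 to 621 per valine sample. It passed in all 10 alternatives and with each of the 8 samples left out.

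Vcl (ENSMUSG00000021823, chromosome 14) encodes vinculin, which ties both integrin and cadherin sites to actin. It had 11.2, 10.9, 10.9 and 9.23 FPKM in control and 7.94, 7.28, 8.82 and 7.72 FPKM in valine samples, without overlap. The change was -0.37 ± 0.0876 (SE) on the log2 scale, a mean that fell by 24.7% (limma adjusted p = 0.0376). With 1 sample left out the adjusted p ranged from 0.0295 to 0.102 and passed only without control replicate 4 or valine replicate 3.

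The alpha chain Itga6, a partner of Itgb1, had 4.92 ± 0.542 and 4.39 ± 0.739 FPKM and did not pass (limma adjusted p = 0.532). Its interval of -0.43 to 0.15 on the log2 scale does not reach the estimate for Itgb1, though the difference between the genes was not tested. Zyxin (Zyx), an actin regulator of adhesion sites, had 11.4 ± 0.709 and 10.8 ± 1.81 FPKM. Eps8, an actin capping and bundling protein of the ectoplasmic specialization, had 2.42 ± 0.523 and 2.29 ± 0.311 FPKM. Neither passed (limma adjusted p = 0.72 and 0.881).

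Itgb1 and Vcl are broadly expressed, so the markers of cells outside the tubules are given beside them. As above, all 11 Leydig markers and 3 of 8 tested endothelial markers fell. Of 8 tested stroma markers 6 fell and none rose, and their summed level was 53.9 to 93.1 FPKM in control and 23.1 to 28.7 FPKM in valine samples. Of 9 tested macrophage markers 5 fell (summed level of the 10 listed 107.7 to 130.1 and 47.8 to 63.7 FPKM). Of 8 peritubular myoid markers 3 fell (Acta2, Cald1 and Lmod1), 7 had a negative change, and the median change was -0.56 on the log2 scale. The summed level of that list overlapped (472 to 527 and 482 to 556 FPKM), but most of it is Actg2, so it says little of the other markers. None of these markers was at 0 in all samples, and their part in the falls of Itgb1 and Vcl was not tested.

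The upstream sequences of Itgb1 and Vcl are shown as those of the actin and integrin genes that fell. They are the 250 bases before the start of each gene, from RefSeq on GRCm38.p6, at chr8:128685404-128685653 and chr14:20929148-20929397, both on the plus strand. Capitals mark matches to a GC box or CCAAT box on either strand, as above, or to a CArG box, the element bound by serum response factor.
Itgb1: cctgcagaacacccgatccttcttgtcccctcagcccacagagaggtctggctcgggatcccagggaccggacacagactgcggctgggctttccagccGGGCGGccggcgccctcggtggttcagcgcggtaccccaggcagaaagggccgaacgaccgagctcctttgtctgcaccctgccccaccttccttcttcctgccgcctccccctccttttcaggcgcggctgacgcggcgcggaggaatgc
Vcl: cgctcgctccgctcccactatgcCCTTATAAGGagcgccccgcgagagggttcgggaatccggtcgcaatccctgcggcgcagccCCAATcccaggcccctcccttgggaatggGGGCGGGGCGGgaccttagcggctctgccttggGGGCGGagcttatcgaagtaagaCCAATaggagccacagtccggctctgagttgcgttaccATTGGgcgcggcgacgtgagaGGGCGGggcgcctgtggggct
The Vcl sequence held 4 GC boxes, of which 2 overlap, 3 CCAAT boxes and 1 CArG box. A CArG box was found in 1.47% of the 32851 upstream sequences and in no other of the 23 junction genes with an entry. The Itgb1 sequence held 1 GC box. The 23 junction genes had 32 upstream sequences, of which 23 held a GC box and 11 a CCAAT box, beside the 32.7% and 33.85% of all such sequences. Some of these genes have several sequences, and those of Crb3, of Ctnnb1, of Marveld2 and of Ocln overlap. A box in the shared bases counts for each sequence that holds it. Counted by gene, 19 of the 23 held a GC box and 10 a CCAAT box. The shares were not compared at like GC content. A match is a description of the letters and does not show that a factor binds there.

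**Figure D3:**
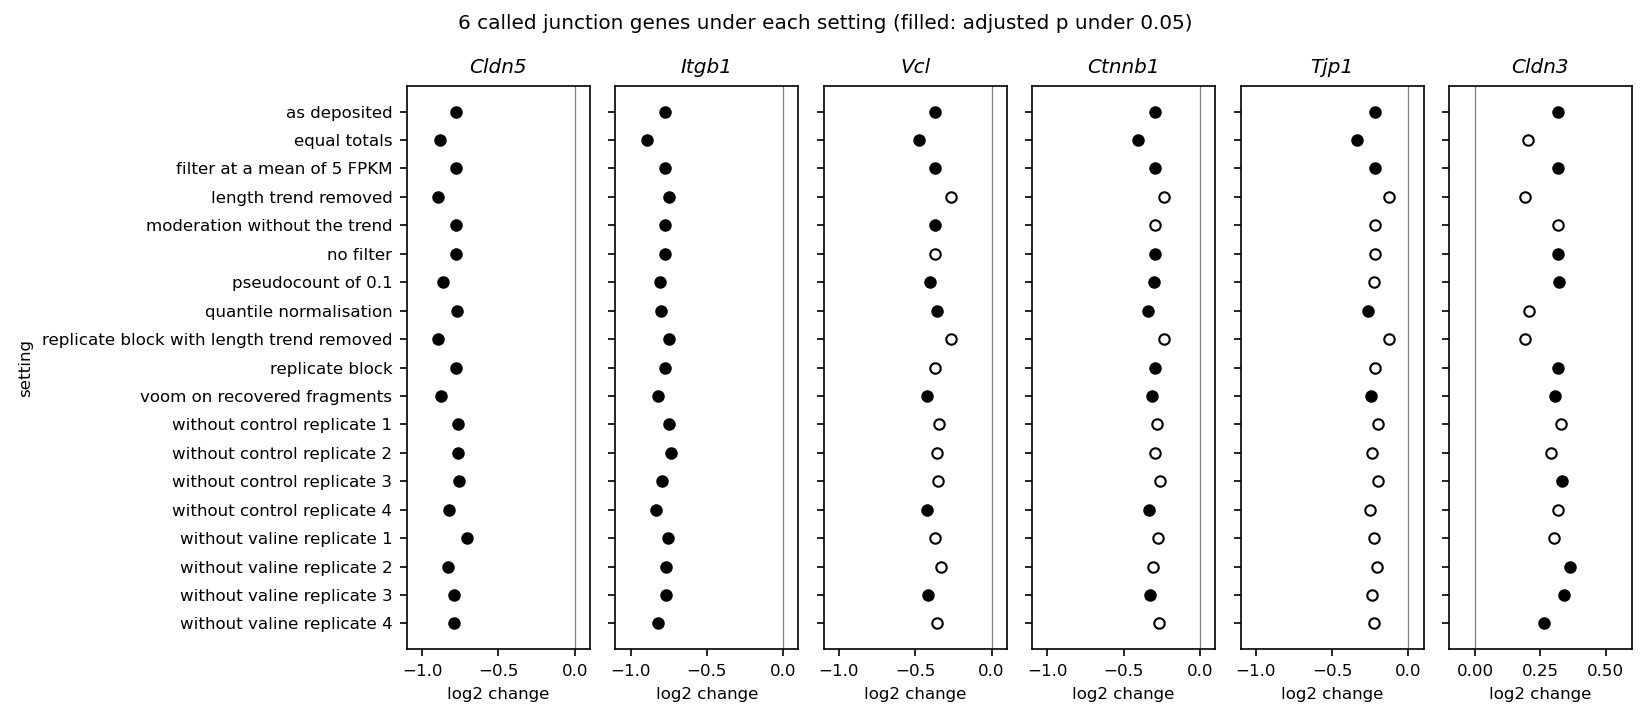
Change on the log2 scale (horizontal axis) of the 6 junction genes that passed, under each analysis setting (vertical axis), with filled points where the limma adjusted p was below 0.05. Cldn5 and Itgb1 are filled in every row, and every point of the 6 genes stays on its side of 0.

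The 6 genes that passed did so with unequal firmness. Itgb1 and Cldn5 passed in all 18 other analyses, while Ctnnb1 passed in 7 of 10 alternatives and 2 of 8 with a sample left out, Vcl in 6 and 2, Cldn3 in 5 and 4, and Tjp1 in 4 and none. The direction of all 6 was the same throughout. The voom method of limma on recovered fragments takes the depth of each value into account and was chosen after seeing the data. With it all 6 passed (limma adjusted p = 0.00056 for Itgb1 to 0.0264 for Cldn3). That setting keeps the length trend, and with the trend removed only Cldn5 and Itgb1 passed.

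**Figure D4:**
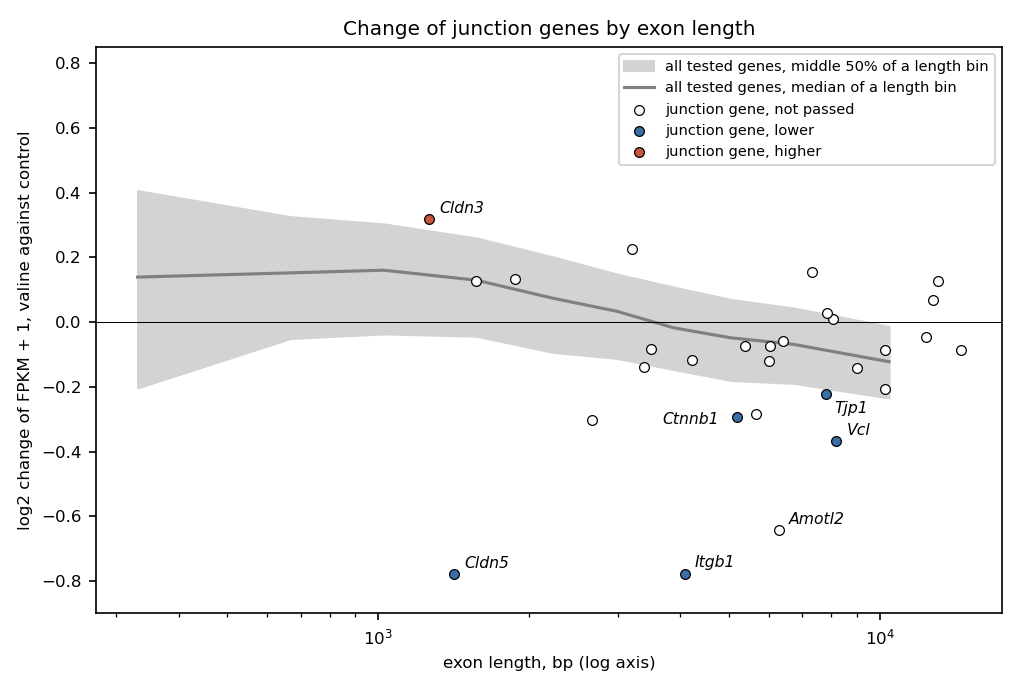
Change on the log2 scale against exon length (log axis) for the 29 tested junction genes (points), over the median (line) and the middle 50% (grey band) of all tested genes in 10 length bins. Cldn5, Itgb1 and Amotl2 lie farthest below the band. Cldn3 lies just above it, and Jam3 and Ctnnd1, which did not pass, lie farther above it.

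Other genes of the same structures were taken from 7 lists covering 131 genes, of which 110 were tested. Of these 2 rose (1.82%, against 4.32% of all tested genes) and 7 fell (6.36%, against 4.41%), with a median change of -0.07 on the log2 scale, beside 0.02 over all tested genes. With equal totals 2 of the 110 were higher and 16 lower, beside 363 and 2022 of all 22077 tested genes. Of 16 tested genes of other tight junction proteins 1 rose (6.25%), of 18 other adherens junction genes none passed, and of 6 desmosome genes 1 fell (16.7%). Of 7 other connexins none passed, and of 19 other polarity genes 2 fell (10.5%). Of 26 genes of the ectoplasmic specialization and actin 3 fell (11.5%) and 1 rose (3.85%), and of 18 junction kinases and signals 1 fell (5.56%).

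The 4 largest falls that passed in these lists were those of Lamc3, Msn, Tgfbr2 and Plec. Lamc3, a laminin chain known from the spermatid junction and from basement membranes, fell from 11.5 ± 1.90 to 2.69 ± 0.312 FPKM (change -1.75, limma adjusted p = 0.00116). Plec, which encodes the giant cytolinker plectin, fell from 113.8 ± 12.1 to 62.9 ± 6.47 FPKM (change -0.85, limma adjusted p = 0.00372). Msn, which encodes moesin and tethers actin to the membrane, fell from 3.55 ± 0.573 to 1.27 ± 0.134 FPKM (change -0.998, limma adjusted p = 0.00453). Tgfbr2, a receptor of the TGF-beta signals that loosen the barrier, fell from 1.76 ± 0.207 to 0.424 ± 0.0470 FPKM (change -0.95, limma adjusted p = 0.00583).

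These 4 falls passed with each sample left out. Smaller falls were those of the GTPase Cdc42 (68.4 ± 3.90 to 57.0 ± 3.15 FPKM, limma adjusted p = 0.0369), the polarity kinase Mark2 (43.0 ± 2.44 to 34.98 ± 2.82 FPKM, limma adjusted p = 0.043) and the plakophilin Pkp4 (10.6 ± 0.321 to 8.31 ± 0.515 FPKM, limma adjusted p = 0.0271). With length accounted for, Mark2 and Pkp4 missed the threshold (limma adjusted p = 0.187 and 0.0726) and each passed in only 2 of 8 analyses with a sample left out, and the call of Cdc42 was lost with each of the 8 samples left out.

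Vasp, which speeds actin growth at adhesion sites, rose from 81.5 ± 2.14 to 111.7 ± 8.61 FPKM (change 0.45, limma adjusted p = 0.00594) and passed with each sample left out; it was singled out after its values were seen. Ybx3, a nucleic acid binding protein that docks on ZO-1 and is also abundant in germ cells, rose from 1102 ± 72.8 to 1368 ± 71.5 FPKM (change 0.31, limma adjusted p = 0.0171) and missed the threshold under quantile normalisation (limma adjusted p = 0.13) and in 2 of 8 analyses with a sample left out. Among germ cell markers, 8 of 10 of elongating spermatids rose and none fell, with a summed level of 43289 to 45542 FPKM in control and 55094 to 67214 FPKM in valine samples. Of 10 round spermatid markers 3 rose and 1 fell, of 10 spermatocyte markers 1 rose and 1 fell, and of 7 tested spermatogonia markers none rose and 2 fell. The summed levels of these 3 lists overlapped between the groups. The part of germ cells in the rises of Vasp and Ybx3 was not tested.

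Where no gene of a list passed, the lowest p-values belonged to Plekha7 (2.48 ± 0.423 and 1.76 ± 0.171 FPKM, limma adjusted p = 0.144) and Ssx2ip (246 ± 11.2 and 265 ± 22.3 FPKM, limma adjusted p = 0.366) among adherens junction genes. Among connexins they belonged to Gja4 of endothelium (2.94 ± 0.308 and 1.73 ± 0.471 FPKM, limma adjusted p = 0.068) and Gja6 (7.13 ± 0.850 and 9.02 ± 0.300 FPKM, limma adjusted p = 0.072).

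**Figure D5:**
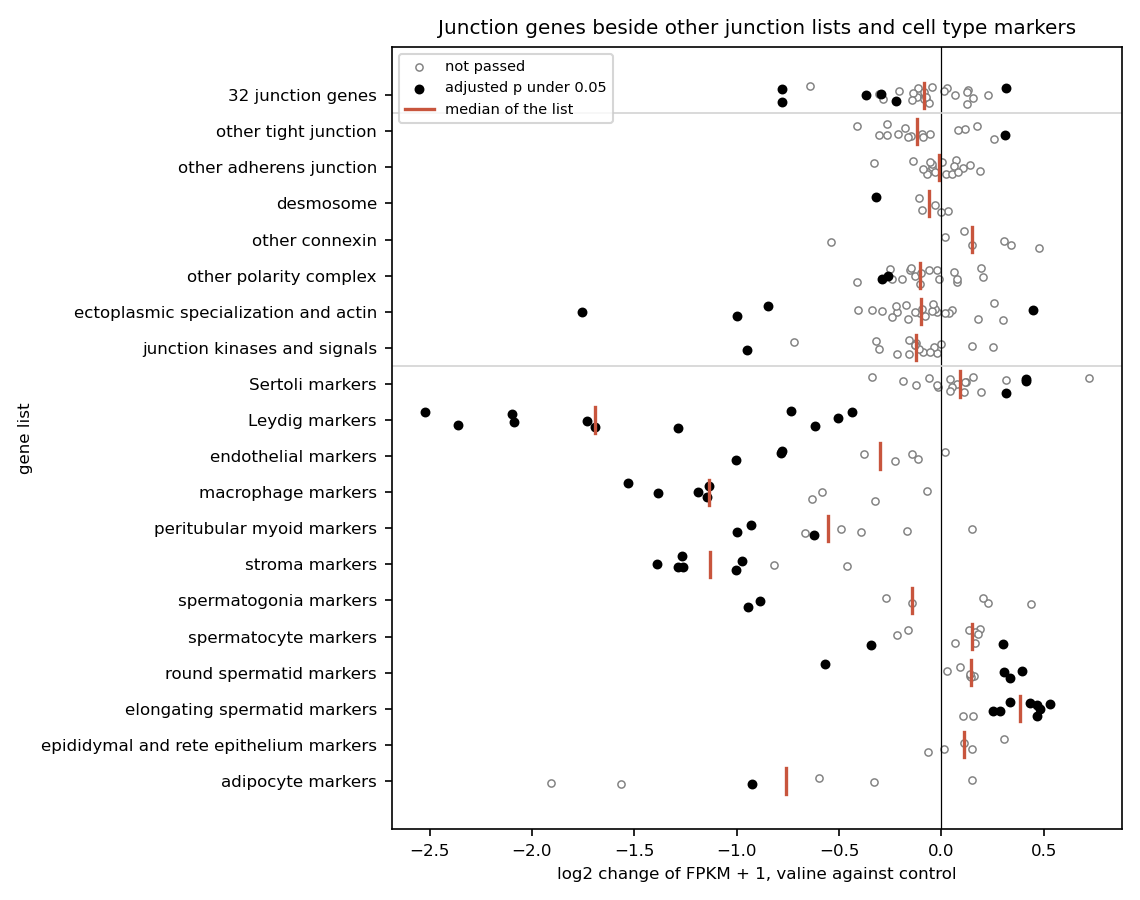
Change on the log2 scale of every tested gene (points, filled where the limma adjusted p was below 0.05) of the 32 junction genes, the 7 lists of other junction genes and the 12 lists of cell type markers, with each list's median as a red bar. The junction lists lie near 0 with medians of -0.13 to 0.15, while the Leydig, macrophage and stroma lists have medians of -1.69, -1.14 and -1.13.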

How the data were processed

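The authors deposited a table named as FPKM for 55414 Ensembl genes in 8 samples of mouse testis. Reads were aligned with HISAT2 to GRCm39, per the submitters' processing notes. The quantifier, annotation, strand setting and tool versions are not given in the sources used here; overlapping genes therefore cannot be told apart by strand. Columns were matched to samples by group (headed VA for valine) and replicate number, with 0 left unused. Symbols came from GENCODE vM21 and RefSeq GRCm38.p6 tables, which named 52081 genes. Exon lengths came from GENCODE vM21, and no coordinates were taken across builds.

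The 8 FPKM totals had a geometric mean of 1000000 and matched, within 0.327%, the inverse of TMM scaling factors computed from the same values. The deposited values thus have the form of per-length shares of the library scaled by such factors. Multiplied by exon length and a scale per sample, the values were whole fragments (tolerance 0.05 plus rounding) in all 8 samples for 96.1% of 22077 tested genes, against 0.104% with lengths 3% too long. Of the 32 junction genes 26 were whole and the fragments of the other 6 (Cgn, Nectin1, Afdn, Pard3, Patj and Itga6) are approximate. No pair of samples was identical or within sampling noise.

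Genes averaging 1 FPKM or more over the 8 samples were tested on log2(FPKM + 1) with limma 3.58.1 in R 4.3.3, with treatment as the only term and moderation that follows the mean-variance trend. Tests were two-sided, with Benjamini-Hochberg adjustment over all tested genes at 0.05. The fit was tested on simulated data in which 200 of 22077 genes changed. It recovered 28 of 100 changes of 0.5 on the log2 scale and 60 of 100 changes of 1. Of its 93 calls 5 were false. In the data 1928 genes passed, so the adjusted threshold was stricter in the simulation and its recovery rate does not carry over. Alternatives were a pseudocount of 0.1, no filter, a filter at 5 FPKM, equal totals, quantile normalisation, removal of a length trend (loess, span 0.3), moderation without the trend, the replicate number as a block alone and with the length trend removed, and each sample left out. limma's voom on recovered fragments was chosen after seeing the data.

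The 32 genes and all lists were chosen with earlier results of these data known. All 32 are named. Of every other junction list at most 3 genes that passed are named, those of greatest change, or 2 of lowest p if none did. Vasp, Tgfb2 and the barely detected claudin and desmosome genes are named outside this rule. Of marker lists, counts and summed levels are given. Upstream sequences were from RefSeq, which held entries for 23 of the 32, and motifs were searched in 250 bases on both strands. E-boxes (CANNTG) were searched too and held by 66.2% of all upstream sequences and by 16 of the 32 sequences of these genes.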

Additional observations from a re-analysis of the deposited data

Results flagged for a closer look

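Of 64 groups of 4 samples (32 genes in 2 groups), 3 held a sample far from its nearest neighbour relative to the group's range, where chance gives about 1 in 20. Amotl2 had 6.01 FPKM in control replicate 1, against 2.38 to 2.63 FPKM in the other controls, and its change went from -0.64 to -0.39 on the log2 scale without that sample. Nectin3 had 99.2 FPKM in control replicate 4, against 82.6 to 84.6 FPKM in the others. Cldn5 had 9.88 FPKM in control replicate 4, against 11.2 to 11.4 FPKM in the others, and its change without that sample was -0.82 on the log2 scale.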

How the results depend on the processing

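The labels number the replicates 1 to 4 in both groups. Same-numbered samples did not all deviate together (correlations of deviations from the group mean -0.0167, -0.0401, 0.104 and 0.111), so the numbers were not taken as pairs. With the replicate block 1070 genes changed in all, 1 junction gene was higher and 3 lower, and with the block and the length trend removed 457, 0 and 2. Against 1928 genes as deposited, 1188 changed after removal of the length trend, 1281 without a filter and 1350 with moderation without the trend. With 1 sample left out 842 to 1535 changed. The junction genes that rose were 0 with equal totals, quantile normalisation, the length trend removed or moderation without the trend, and 0 to 1 with a sample left out. Those that fell were 2 with the length trend removed, 3 without a filter or with moderation without the trend, and 2 to 4 with a sample left out (4 without control replicate 4 or valine replicate 3, 2 without any other). None of the 6 genes that passed changed direction in any alternative. The cause of these losses was not tested. Of genes not past the threshold, no alternative brought any past it. Crb3, Marveld2 and the 3 untested genes rest on at most 44 fragments per sample, which limits what could be seen for them. The limit is not theirs alone, and other genes that did not pass could still have changed. In simulated data over all tested genes, 28 of 100 changes of 0.5 on the log2 scale were recovered.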

Other observations

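Several junction genes known from other epithelia were barely detected. Cldn1, Cldn2, Cldn4 and Cldn15 had at most 0.540 FPKM in any sample, and the desmosomal cadherins Dsg2 and Dsc2 at most 0.205 FPKM. The desmosomal linker desmoplakin (Dsp) averaged 0.967 FPKM in control testes and 0.882 FPKM with valine. Tgfb2, a TGF-beta ligand, was below the limit for testing. It had 0.259 to 0.299 FPKM in control and 0.0450 to 0.130 FPKM in valine samples, which did not overlap. Of all tested genes 9.39% were lower without overlap. Tgfb2 is named outside the rule for naming genes. Of the 18 tested genes of its list only the receptor gene Tgfbr2 passed.

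Ratios of members within a sample do not depend on the scaling of samples. They are not free of the length trend where the genes differ in exon length, as Itgb1 (4081 bp) and Cldn11 (1870 bp) do. The following ratios were chosen after the values were seen and carry no test. Cldn3 to Cldn11 was 1.23, 1.18, 1.37 and 1.43 in control and 1.47, 1.31, 1.39 and 1.77 in valine samples, with overlap. Cldn5 to Cldn11 was 0.13 ± 0.01 in control and 0.07 ± 0.01 in valine samples, and Itgb1 to Cldn11 was 0.39 ± 0.02 and 0.21 ± 0.02, both without overlap. Ctnnb1 to Cdh2 was 3.31 ± 0.30 and 2.66 ± 0.12, also without overlap. Itgb1 to Itga6 was 6.50 to 7.16 in control and 3.63 to 4.12 in valine replicates 1 to 3, with 6.21 in valine replicate 4, where Itga6 was lowest.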
